A study of Oncorhynchus mykiss with 27 samples.

Results

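The response of rainbow trout testis explants to follicle-stimulating hormone (Fsh) was measured while their steroid synthesis was inhibited. The comparison takes 12 of the 27 arrays of the series, 6 of explants cultured with Fsh and trilostane (Fsh+Tri) and 6 of explants cultured with trilostane alone (Tri), chosen by their titles. The explants were pieces of testis from an all-male stock at early stages of spermatogenesis, mixed into a single pool and spread over the wells of culture plates. All 12 wells received trilostane at 10 µg/mL and were kept for 96 h, and the Fsh+Tri wells also received purified salmonid Fsh at 500 ng/mL, added after a pre-incubation with the inhibitor. Wells without trilostane, either with no addition (Ctrl, 6 arrays) or with the same dose of Fsh (Fsh, 6 arrays), served as the reference for the response with steroid synthesis intact. Because every well drew on that 1 pool, p-values measure only the spread between wells and not between fish.

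Fsh is the pituitary hormone that acts on the somatic cells of the testis through a receptor coupled to cAMP, and in fish it also stimulates the production of androgens. Trilostane inhibits 3β-hydroxysteroid dehydrogenase, the enzyme that converts Δ5 into Δ4 steroids, the route to androgens and progestins. Fsh+Tri against Tri thus asks which transcripts respond to Fsh when new Δ4 steroids are held low in both groups. The paper states that trilostane did not fully suppress the steroid production induced by Fsh. Whether residual steroids had a part in the responses below was not tested. In explants, fewer cells of a type and less RNA per cell cannot be told apart.

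Each array is a nylon membrane carrying spotted cDNA clones, and a level is the authors' normalized log2 signal of a clone, so that a difference of 1 is a doubling. The 12 arrays held between 8301 and 8414 values each. Of 9024 clones, 4565 passed the filters on missing values and on expression and were tested, all with limma and with p-values adjusted over the 4565 clones by the Benjamini-Hochberg method. The first fit used all 24 cultured arrays with a shared estimate of the spread (24-array fit), and the same contrast was fitted to the 12 arrays alone (12-array fit). A clone was called where its adjusted p was under 0.05. Names are known for the clones that the study lists as regulated by Fsh and for the reference gene *rps15*. The study chose those clones on these same arrays, so that their share among the called clones is not independent evidence.

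In the presence of trilostane, Fsh raised 15 clones and lowered 1 in the 24-array fit, which is 0.329% and 0.0219% of the clones tested, or 0.35% for the 16 together. All 16 carry a name, and 86 other named clones were not called. At an unadjusted p under 0.05 the fit held 516 clones (11.3%). The 12-array fit called 48 clones higher (1.05%) and 15 lower (0.329%), in all 63 (1.38%), with 716 (15.7%) at an unadjusted p under 0.05. These 63 held the same 16, another 23 named clones and 24 without a name. The spread between arrays differed between the fits: the median SD of a clone was 0.24 in Tri and 0.22 in Fsh+Tri, and 0.30 in Ctrl, where it was 0.25 without Ctrl replicate 4. Without that array, the 24-array fit called 44 clones higher and 12 lower. Leaving out each of the 12 Tri and Fsh+Tri arrays in turn gave 8 to 20 clones higher in the 24-array fit and 20 to 42 in the 12-array fit. In each of these 12 runs *hgfa*, *krt12* clone 2, *mmp19*, *rhobtb3*, *slc30a1*, *tac1* and *tfpi2* kept their call in the 24-array fit, and the other 9 clones lost it in at least 3. All levels of Fsh+Tri lay above all levels of Tri for 59 clones (1.29%) and below them for 25 (0.548%), of which 26 and 5 are named. The median log2 fold change was 0.02 over all tested clones and 0.38 over the named ones.

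**Figure D1:**
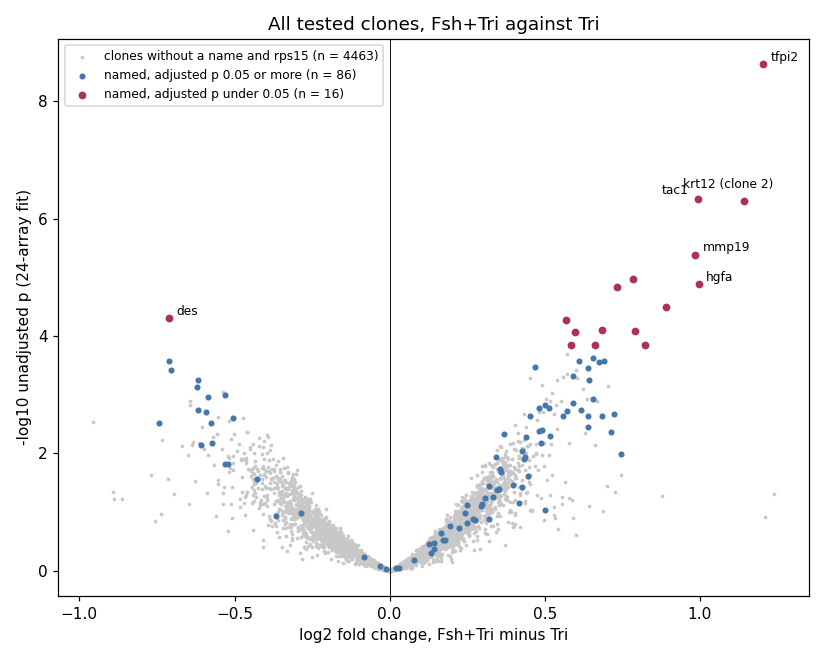
Log2 fold change of Fsh+Tri over Tri (horizontal axis) and −log10 of the unadjusted p of the 24-array fit (vertical axis) for the 4565 tested clones, with 16 called clones in red, 86 further named clones in blue and the other clones in grey. Of the called clones, 15 lie to the right of 0, with *tfpi2* at the top, and *des* alone lies to the left.

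The sample labels give a stage of testis maturation to each array, and the groups differ in it. Of the Tri arrays, 4 are labelled stage I-II and 2 stage III, and of the Fsh+Tri arrays 2 are labelled stage I-II and 4 stage III, although the methods describe explants of both stages in every well. All 16 called clones had the same direction within stage I-II arrays and within stage III arrays, with sizes of 0.50 to 1.01 and 0.42 to 1.33 on the log2 scale. For the 14 of them whose groups do not overlap, that direction was fixed in advance, so that it is no test of stage. With the stage as a covariate, the 24-array fit called 9 clones higher and 0 lower, and the 12-array fit 44 and 11. The 7 of the 16 clones that lost their call in the 24-array fit were *abca1*, *ezr*, *gpam*, *rhag*, *stk3*, the KRAB zinc finger and *des*, with limma adjusted p between 0.0555 and 0.0861. The image files of Tri replicates 1 and 3 came from a newer software version, which no Fsh+Tri array shares. Without the arrays of that version, the counts fell to 8 higher and 0 lower in the 24-array fit and to 18 and 4 in the 12-array fit. The same 7 clones, *galns* and *slc30a1* were then not called in the 24-array fit, with adjusted p between 0.0607 and 0.195.

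Cell type markers were taken from the named clones, and none was chosen as a marker of germ cells. Of those used below, the paper lists *cenpa* with a meiotic or post-meiotic profile in the testis and *dmd* with a meiotic one. The Sertoli cell markers were *amh*, *inha*, *dmrt1* and *cldn11*, all on the study's list of clones regulated by Fsh. In both groups the means of these 4 markers lay above the experiment's median of 6.42. Their summed level ran from 10.54 to 11.20 in Tri and from 11.22 to 11.64 in Fsh+Tri, without overlap. The 4 did not move together. The mean of *inha*, the brightest of these clones, of *cldn11* and of *dmrt1* was higher in Fsh+Tri, by 0.75, 0.49 and 0.44 on the log2 scale, and that of *amh* was lower, at -0.53. Of these 4 markers, 1 (*inha*) was called, in the 12-array fit, where 1.05% of all clones tested were called higher. The summed level of 3 genes of dividing cells (*ccne1*, *mcm7*, *cenpa*) ran from 10.61 to 11.07 in Tri and from 10.16 to 10.44 in Fsh+Tri. This sum was mostly *ccne1*, whose mean in Tri was 10.46 beside 7.78 for *mcm7* and 8.06 for *cenpa*, and it leaves out *ccng1*, a cyclin that went the other way (0.30). The summed levels of 6 immune clones overlapped, at 10.62 to 11.04 in Tri and 10.47 to 10.89 in Fsh+Tri, and hold 4 clones of antigen presentation with a lower mean in Fsh+Tri and 2 of cathepsin S with a higher one. Whether a change in the mix of cells had a part in the results below was not tested. The level of *rps15*, a ribosomal protein gene used as a reference, ran from 10.74 to 11.48 in Tri and from 10.79 to 11.21 in Fsh+Tri, and its mean differed by -0.08 on the log2 scale (standard error 0.14, limma adjusted p = 0.865).

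Among the groups of named clones, extracellular proteases and their inhibitors held the largest median, 0.98 over 5 clones. Of these, 3 rose in the 24-array fit and 4 in the 12-array fit, beside 0.329% and 1.05% of all clones tested. Every group here and below holds only clones that the study chose for their response to Fsh on these arrays. Group medians and counts of calls are therefore a description. *tfpi2* encodes a secreted inhibitor of serine proteases such as plasmin. Its level ran from 6.06 through a median of 6.48 to 7.0 in Tri and from 7.35 through 7.69 to 8.0 in Fsh+Tri. The lowest Fsh+Tri array thus lay above the highest Tri array, and the rise was 2.30-fold (log2 1.20, standard error 0.14, limma adjusted p = 1.06e-05). *mmp19*, a metalloproteinase of the extracellular matrix, ran from 6.36 through 6.57 to 6.92 in Tri and from 7.22 through 7.55 to 8.15 in Fsh+Tri. It rose 1.98-fold (log2 0.98, standard error 0.18, adjusted p = 0.0047), and Fsh+Tri replicates 1 and 3 lay highest. Trilostane alone changed *mmp19* by -0.71 against Ctrl (limma adjusted p = 0.0524). Its means were 7.33 in Ctrl, 6.62 in Tri, 7.60 in Fsh+Tri and 8.87 in Fsh. *hgfa*, annotated as the activator of hepatocyte growth factor, a serine protease, ran from 7.94 through 8.36 to 8.68 in Tri and from 9.08 through 9.39 to 9.44 in Fsh+Tri. Its Tri arrays formed a lower and a higher trio, both below every Fsh+Tri array, and it rose 1.99-fold (log2 1.00, standard error 0.19, adjusted p = 0.0097). *plg*, plasminogen, the precursor of plasmin, had a log2 fold change of 0.66 with no overlap between the groups and was called in the 12-array fit (adjusted p = 0.0165) but not in the 24-array fit (adjusted p = 0.0567). *timp2*, an inhibitor of metalloproteinases, had overlapping groups and a log2 fold change of 0.43 (24-array adjusted p = 0.297, 12-array adjusted p = 0.134).

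Of 7 clones of epithelial keratins, junctions and the cell cortex, 3 rose in the 24-array fit and 5 in the 12-array fit. The shares of all clones tested were 0.329% and 1.05%. The first count holds *krt12* clone 1, and the second holds *slc9a3r1* as well. These passed the expression filter only through wells with Fsh, so that the counts are not independent of the filter. *slc9a3r1* had means of 6.17 in Ctrl and 6.12 in Tri, below the experiment's median of 6.42. Both clones of *krt12*, a type I keratin of intermediate filaments, were among those called. The second clone ran from 7.97 through 8.07 to 8.51 in Tri and from 8.87 through 9.34 to 9.57 in Fsh+Tri, and rose 2.21-fold (log2 1.14, standard error 0.18, limma adjusted p = 0.00077). The first clone, dimmer on the membrane, ran from 5.05 through 5.42 to 5.89 in Tri and from 5.83 through 6.36 to 6.56 in Fsh+Tri, a rise of 1.85-fold (log2 0.89, standard error 0.18, adjusted p = 0.0184). For this clone Fsh+Tri replicate 2 fell just below Tri replicate 3, and the groups overlapped by these arrays. Its means in Ctrl (5.99), Tri (5.40) and Fsh+Tri (6.29) lay below the experiment's median of 6.42 that the expression filter uses. It was tested only through its mean of 6.55 in Fsh wells, so that it is not independent support for the other clone. Trilostane alone changed the second clone by -0.52 and the first by -0.59 against Ctrl (limma adjusted p = 0.269 and 0.187). *ezr*, ezrin, which ties the plasma membrane to cortical actin, ran from 6.68 through 7.21 to 7.56 in Tri and from 7.76 through 7.98 to 8.29 in Fsh+Tri, a rise of 1.77-fold without overlap (log2 0.82, standard error 0.19, adjusted p = 0.0411, 0.0861 with the stage covariate). *slc9a3r1*, a scaffold that binds ezrin, and *sptbn1*, a spectrin of the membrane skeleton, were called in the 12-array fit, with log2 fold changes of 0.51 and 0.59 and no overlap. The Tri arrays of *sptbn1* were nearly alike, between 7.83 and 7.90. *cldn11*, a claudin of the Sertoli cell barrier, had a log2 fold change of 0.49 (12-array adjusted p = 0.119), and *krt18*, another type I keratin, one of -0.37 (12-array adjusted p = 0.402).

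**Figure D2:**
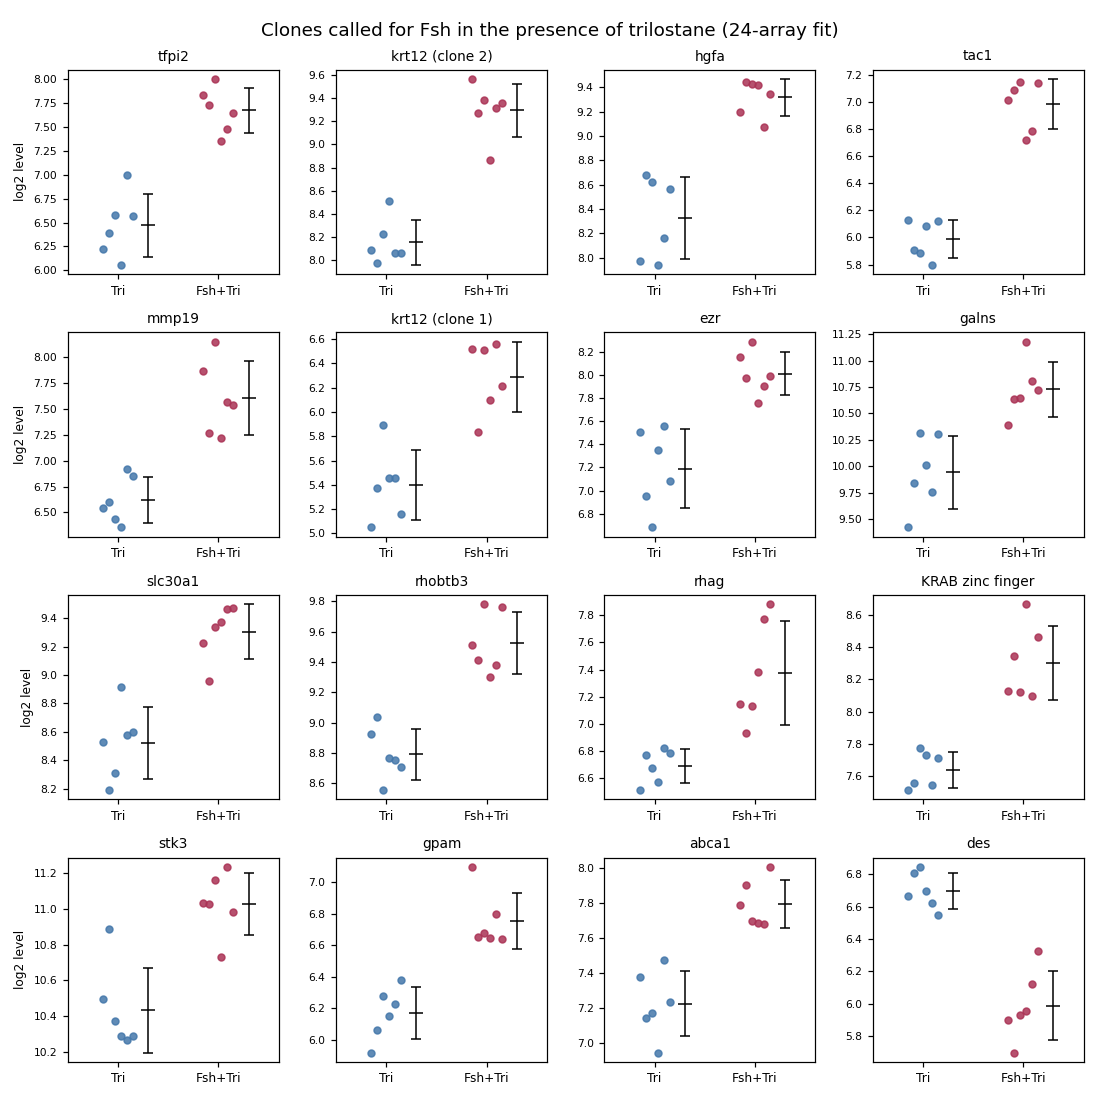
Log2 level on each of the 6 Tri (blue) and 6 Fsh+Tri (red) arrays for the 16 clones called in the 24-array fit, 1 panel per clone with its own vertical axis, with bars for the mean ± SD. The groups do not overlap in 14 panels and overlap by a few arrays in those of *krt12* clone 1 and *stk3*.

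Among secreted hormones and growth factors, 1 of 10 clones rose in the 24-array fit and 4 in the 12-array fit. Over all clones tested, 0.329% and 1.05% rose. *tac1*, the precursor of the tachykinins substance P and neurokinin A, ran from 5.80 through 6.00 to 6.13 in Tri and from 6.72 through 7.05 to 7.15 in Fsh+Tri. It rose 1.99-fold (log2 0.99, standard error 0.16, limma adjusted p = 0.00077). This clone passed the expression filter only through its wells with Fsh, with means of 5.81 in Ctrl and 5.99 in Tri below the experiment's median of 6.42. So did *vt1*, described below and also among the 4, with means of 6.06 in Ctrl and 5.90 in Tri. *inha*, the inhibin α subunit made by Sertoli cells, ran from 9.54 through 9.94 to 10.40 in Tri and from 10.21 through 10.88 to 11.04 in Fsh+Tri. Its log2 fold change of 0.75 was called in the 12-array fit (adjusted p = 0.0234) and not in the 24-array fit, where its standard error was 0.27 (adjusted p = 0.309). *mdka*, a midkine growth factor that binds heparin, likewise passed in the 12-array fit alone (log2 0.64, adjusted p = 0.0455). *amh*, anti-Müllerian hormone, which restrains the onset of spermatogenesis in fish, ran from 8.31 through 8.78 to 8.94 in Tri and from 7.99 through 8.18 to 8.55 in Fsh+Tri. Its log2 fold change of -0.53 did not pass in the 12-array fit (adjusted p = 0.0522) or in the 24-array fit (adjusted p = 0.348), and the groups overlapped. 

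All 5 clones of lysosomal enzymes had a higher mean in Fsh+Tri, as did 54.7% of all clones tested. Of the 5, 1 rose in the 24-array fit and 3 in the 12-array fit, beside 0.329% and 1.05% of all clones. *galns*, a sulfatase that degrades keratan sulfate and chondroitin sulfate, ran from 9.42 through 9.93 to 10.31 in Tri and from 10.39 through 10.68 to 11.18 in Fsh+Tri. It rose 1.73-fold (log2 0.79, standard error 0.17, limma adjusted p = 0.0296). The cathepsins S on 2 clones, cysteine proteases of the endosome and lysosome, were called in the 12-array fit, *ctssb1* with a log2 fold change of 0.68 and no overlap (adjusted p = 0.0065) and *ctss* with 0.64 and overlap (adjusted p = 0.0428). *ctl1*, cathepsin L, and *cpvl*, a serine carboxypeptidase, had log2 fold changes of 0.62 and 0.52 with overlap (12-array adjusted p = 0.0835 and 0.0674).

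Among the lipid genes, *abca1* and *gpam* were called in the 24-array fit, although *fasn* clone 1 and *etnk1* had larger log2 fold changes. *abca1*, the transporter that loads cellular cholesterol onto apolipoproteins, ran from 6.95 through 7.21 to 7.48 in Tri and from 7.68 through 7.75 to 8.01 in Fsh+Tri, a rise of 1.48-fold without overlap (log2 0.57, standard error 0.12, limma adjusted p = 0.0248, 0.0555 with the stage covariate). Of 6 clones of fatty acid and glycerolipid metabolism, 1 rose in the 24-array fit and 2 in the 12-array fit, beside 0.329% and 1.05% of all clones tested. The 1 was *gpam*, a mitochondrial acyltransferase of triglyceride and phospholipid synthesis (limma adjusted p = 0.0411, 0.0585 with the stage covariate). Fatty acid synthase was called in the 12-array fit on *fasn* clone 1 (log2 0.68, adjusted p = 0.0234), and *fasn* clone 2 had a log2 fold change of 0.57 with overlap (adjusted p = 0.124). *etnk1*, a kinase of phosphatidylethanolamine synthesis, had a log2 fold change of 0.64 with a wide Tri group, from 5.97 to 7.66 (12-array adjusted p = 0.165).

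Of 3 clones of steroid and sterol synthesis described here, none was called in either fit, and *hsd3b1* alone had an unadjusted p under 0.05 in each. *hsd3b1*, the enzyme that trilostane inhibits, ran from 6.76 through 7.13 to 7.38 in Tri and from 7.28 through 7.62 to 7.78 in Fsh+Tri, so that Fsh+Tri replicate 3 lay below Tri replicate 3. Its log2 fold change was 0.50 (95% interval 0.21 to 0.79, 24-array adjusted p = 0.131, 12-array adjusted p = 0.0552), beside 0.46 for Fsh alone. *fdps*, which makes farnesyl pyrophosphate, and *cyp46a1*, a cholesterol hydroxylase, had log2 fold changes of 0.29 (interval -0.04 to 0.63) and 0.28 (interval -0.09 to 0.64). 

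Of 3 enzymes of sulfur amino acids and polyamines, 2 rose in the 12-array fit, beside 1.05% of all clones tested. *cth*, which forms cysteine from cystathionine, ran from 6.69 through 6.80 to 7.17 in Tri and from 7.33 through 7.57 to 7.79 in Fsh+Tri (log2 0.69, 12-array adjusted p = 0.0088). *odc1*, ornithine decarboxylase, the first enzyme of polyamine synthesis, had a log2 fold change of 0.56 without overlap (adjusted p = 0.021). *cbs*, the preceding enzyme of the route to cysteine, had a log2 difference of 0.40 (adjusted p = 0.174). Of 4 clones of sugar and nucleotide metabolism, *hk1*, hexokinase, was called in the 12-array fit (log2 0.48, adjusted p = 0.0387). *pgd*, of the pentose phosphate pathway, had the larger change, 0.65, with Tri replicate 3 inside the Fsh+Tri range (adjusted p = 0.0524), and the glycolytic *gapdhs* had 0.14 (adjusted p = 0.595).

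*des*, desmin, the intermediate filament of muscle-type cells, was the single clone lowered in the 24-array fit. Its level ran from 6.55 through 6.68 to 6.85 in Tri and from 5.70 through 5.94 to 6.33 in Fsh+Tri, a log2 fold change of -0.71 (standard error 0.15, limma adjusted p = 0.0248, 0.0555 with the stage covariate). The other 3 muscle-type clones lay close to 0, *dmd* (dystrophin) at -0.08, *smtn* (smoothelin) at -0.03 and *fblim1* (a filamin-binding protein) at 0.02, with 24-array intervals of -0.40 to 0.23, -0.36 to 0.30 and -0.31 to 0.35. *dmd* was tested only through its mean of 6.57 in Fsh wells. Its means of 5.59 in Tri and 5.50 in Fsh+Tri lay below the experiment's median of 6.42. The summed level of *des*, *smtn* and *dmd* ran from 7.71 to 8.07 in Tri and from 7.55 to 7.84 in Fsh+Tri.

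Of 5 cell cycle and chromosome clones, 4 had a lower mean in Fsh+Tri, as did 2069 of all 4565 clones tested. In the 12-array fit 1 of the 5 fell, beside 0.329% of all clones tested. This was *ccne1*, cyclin E1, which drives entry into S phase, at 10.17 through 10.47 to 10.70 in Tri and 9.65 through 9.86 to 10.02 in Fsh+Tri (log2 -0.62, 12-array adjusted p = 0.0149). *mcm7*, a subunit of the replicative helicase, had a log2 difference of -0.50 (adjusted p = 0.053), *cenpa*, the histone H3 variant of the centromere, one of -0.59 (adjusted p = 0.0601) and *ing4*, a reader of histone methylation, one of -0.61 (adjusted p = 0.0852). For these 3 the groups overlapped. *ccng1*, cyclin G1, had a log2 difference of 0.30 (adjusted p = 0.273).

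All 4 clones of antigen presentation had a lower mean in Fsh+Tri, as did 2069 of all 4565 clones tested. In the 12-array fit 2 of the 4 fell, beside 0.329% of all clones tested. Both are of class II, which presents peptides to helper T cells. *mhc2a*, the α chain, ran from 6.90 through 7.09 to 7.35 in Tri and from 5.89 through 6.39 to 6.67 in Fsh+Tri without overlap (log2 -0.74, 12-array adjusted p = 0.0135). *onmydab*, the β chain, had a log2 fold change of -0.58 with overlap, where Fsh+Tri replicate 4 stood at 9.44 and the others at 8.98 or less (adjusted p = 0.0486). The clones of *onmy-uba*, a class I heavy chain, had log2 fold changes of -0.52 (adjusted p = 0.0713) and -0.29 (adjusted p = 0.404). Alleles and related genes of these families can share a spotted cDNA, so that a clone need not measure 1 gene alone.

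Among the remaining named clones, *rhobtb3*, whose cDNA also matched a glutaredoxin gene in the study's annotation, ran from 8.56 through 8.76 to 9.03 in Tri and from 9.30 through 9.46 to 9.78 in Fsh+Tri, a rise of 1.66-fold (log2 0.73, standard error 0.14, limma adjusted p = 0.0097). The 12-array fit also called *slc25a43*, a mitochondrial carrier clone with a second match to *slc25a5* (log2 0.47), *lrrc8* clone 2, of the volume-regulated anion channels (log2 0.72), *cyp2m1*, a cytochrome P450 (log2 0.71), and a clone of an uncharacterized protein (log2 0.64). *pol*, annotated as a polyprotein of a mobile element with several other matches, fell in that fit (log2 -0.62, adjusted p = 0.0262). *lrrc8* clone 1 had a log2 difference of 0.20 (adjusted p = 0.415), so that the clones of this gene differed in their call. Clone 2 passed the expression filter only through wells with Fsh, with means of 5.96 in Ctrl and 5.97 in Tri. None of 9 clones of protein and RNA synthesis, folding and breakdown was called in either fit. An unadjusted p under 0.05 was met by 6 on 24 arrays and 9 on 12, beside 11.3% and 15.7% of all clones tested. The 9 clones ranged from *rpl30*, a ribosomal protein, at -0.58 to *rbm47* clone 2, an RNA-binding protein, at 0.50. *dmrt1*, a transcription factor of the male gonad, had 0.44 without overlap (adjusted p = 0.08).

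**Figure D3:**
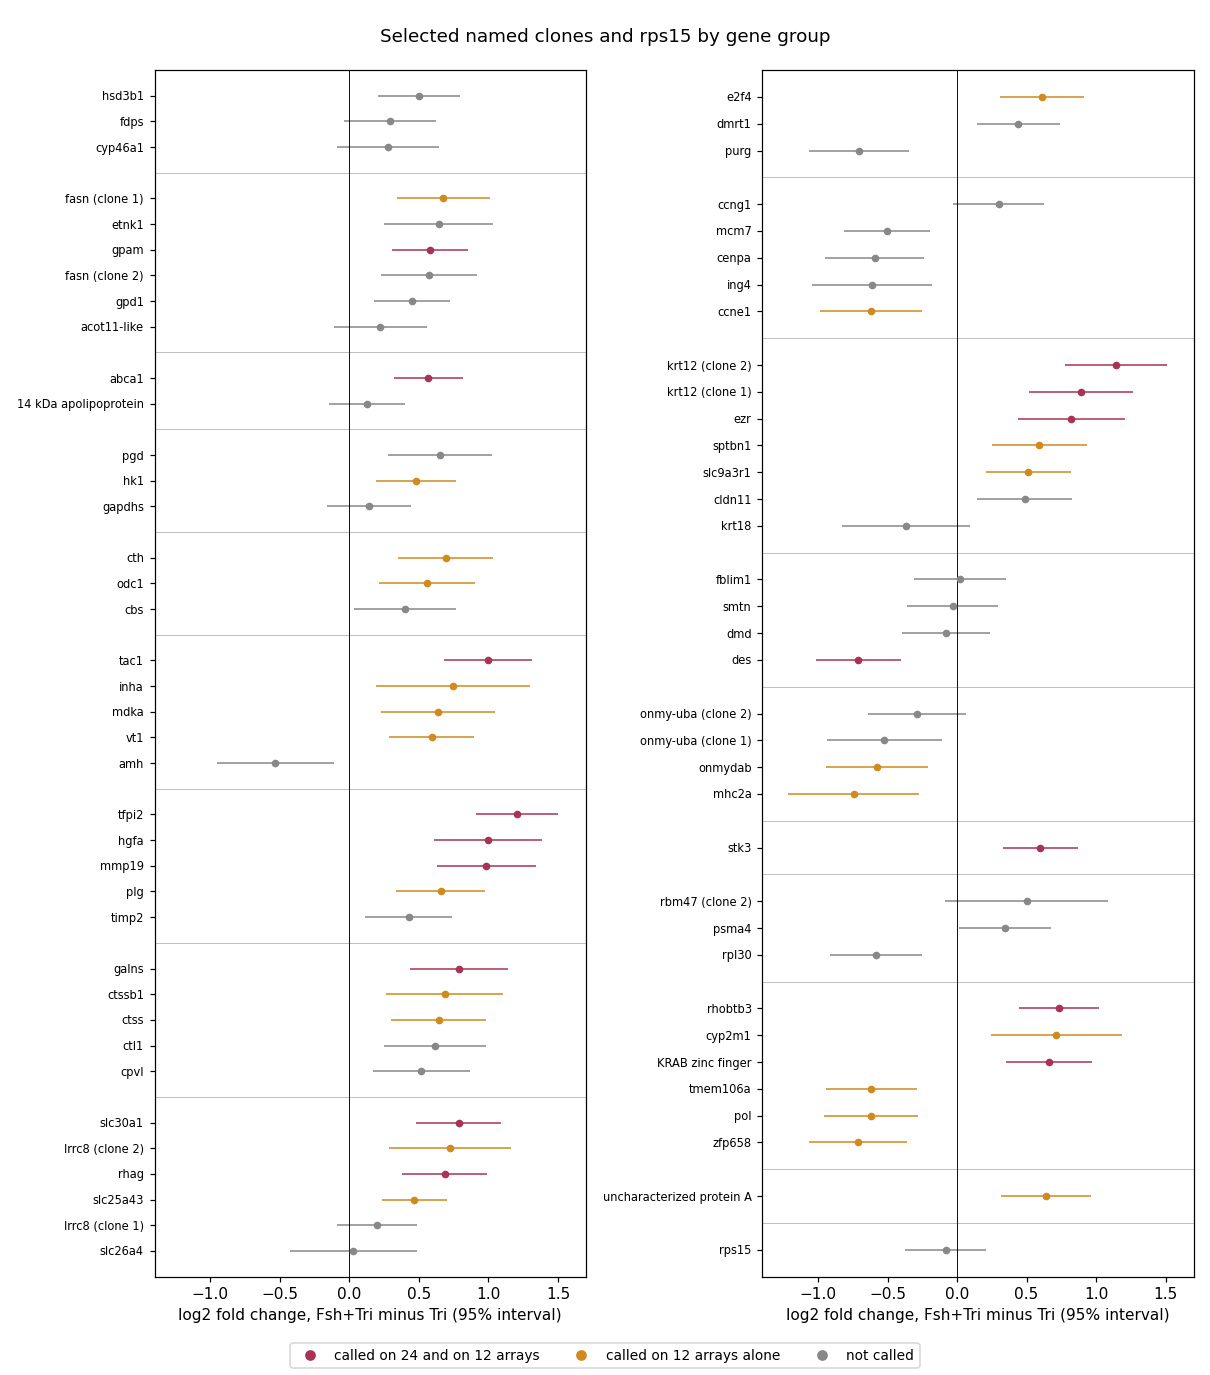
Log2 fold change of Fsh+Tri over Tri with its 95% interval from the 24-array fit for selected named clones and *rps15*, in blocks by gene group. Red clones were called in both fits, orange clones in the 12-array fit alone, and grey clones in neither, and the proteases hold the block with the highest median, 0.98.

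The clones without a name held no call in the 24-array fit, with 443 of 4462 at an unadjusted p under 0.05, and 16 higher and 8 lower calls in the 12-array fit. On the higher side, tcbi0009.a.22 and tcay0022.n.24 had the smallest p in the 24-array fit, with log2 fold changes of 0.57 and 0.60. Their limma adjusted p was 0.0542 and 0.067 in the 24-array fit and 0.018 and 0.0234 in the 12-array fit. On the lower side these were tcay0027.d.15 and tcbk0042.e.04, both at -0.64 (24-array adjusted p = 0.1227 and 0.132, 12-array adjusted p = 0.0199 and 0.025). 

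The same dose of Fsh without trilostane raised 82 clones (1.8%) and lowered 17 (0.372%) in the 24-array fit, 99 (2.17%) in all. That contrast, Fsh against Ctrl, shares no array with Fsh+Tri against Tri. Its groups differ in stage label too: all 6 Ctrl arrays are labelled stage I-II, and the Fsh arrays 3 stage I-II and 3 stage III. The part of stage in this contrast and in the difference between the responses was not tested. Of the 16 clones called with trilostane, 9 were also called without it, namely *tfpi2*, *tac1*, *krt12* clone 2, *mmp19*, *rhobtb3*, *des*, *abca1*, *galns* and *ezr*. Of these, *mmp19* had a log2 fold change of 1.54 without trilostane against 0.98 with it, a difference of -0.55 (unadjusted p = 0.0329, limma adjusted p = 0.594). For *des* the changes were -0.70 and -0.71, and for *ezr* 0.79 and 0.82, with differences of -0.01 and 0.04 between the responses.

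Across all clones, the difference between both responses (with minus without trilostane) was called for 3 (0.0657%). An unadjusted p under 0.05 was met by 359 (7.86%), of which 243 (5.32%) had a positive difference and 116 (2.54%) a negative one. A positive difference can be a larger rise or a smaller fall with trilostane, so that the sign does not give the size of a response. In each of the 3 called clones the response was smaller with trilostane. *vt1*, the precursor of vasotocin, a neurohypophysial hormone, had a log2 fold change of 3.06 without trilostane and 0.59 with it (difference -2.47, limma adjusted p = 6.22e-09). Its level still ran from 5.58 through 5.96 to 6.04 in Tri and from 6.21 through 6.31 to 6.91 in Fsh+Tri, without overlap, and it was called in the 12-array fit (adjusted p = 0.046). *slc26a4*, an anion exchanger, had changes of 2.23 and 0.03 (difference -2.20, adjusted p = 0.000226), with Tri from 5.05 to 6.47 and Fsh+Tri from 5.12 to 6.16. Trilostane alone changed its level by -1.69 against Ctrl (limma adjusted p = 1.62e-05), from a mean of 7.27 in Ctrl to 5.59 in Tri. The means in Tri and Fsh+Tri (5.62) both lay below the experiment's median of 6.42. Whether this lower level had a part in the difference was not tested. The 14 kDa apolipoprotein, a lipid carrier of fish, had changes of 1.12 and 0.13 (difference -0.99, adjusted p = 0.0196). *psma4*, an α subunit of the proteasome core, had changes of opposite sign, -0.71 without and 0.35 with trilostane (difference 1.05, unadjusted p = 7.23e-05, adjusted p = 0.066), and *dmd* had 0.94 and -0.08 (difference -1.03, unadjusted p = 5.83e-05, adjusted p = 0.066). *dmd* reached the experiment's median of 6.42 only in Fsh wells (mean 6.57), and *vt1* only in Fsh (9.12) and Fsh+Tri (6.49) wells. These means enter the difference, so that for these clones its p-value is not independent of the expression filter.

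**Figure D4:**
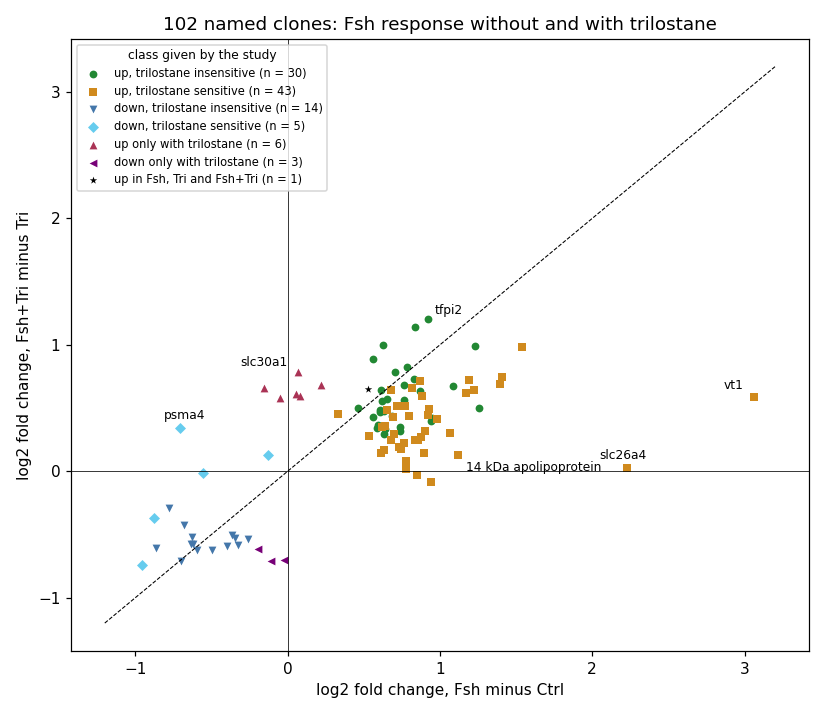
Log2 fold change for Fsh without trilostane (Fsh minus Ctrl, horizontal axis) and with it (Fsh+Tri minus Tri, vertical axis) for the named clones, marked by class as listed in the source publication, with a dashed line of equal change. *vt1* and *slc26a4* lie far to the right at 0.59 and 0.03 on the vertical axis, and the 6 clones of the class up only with trilostane lie near 0 on the horizontal axis.

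The study lists 9 clones as responding to Fsh only with trilostane, 6 upward and 3 downward. They were assigned on these arrays, so that their values are a description. Of the 6, 5 rose in the 24-array fit and all in the 12-array fit, beside 0.329% and 1.05% of all clones tested. The 6 had a median log2 fold change of 0.64 with trilostane and 0.06 without. *slc30a1*, the zinc exporter of the plasma membrane, ran from 8.19 through 8.55 to 8.91 in Tri and from 8.96 through 9.36 to 9.47 in Fsh+Tri, a rise of 1.72-fold (log2 0.79, standard error 0.15, limma adjusted p = 0.0097), and its change without trilostane was 0.07. *rhag*, an ammonia channel best known from red blood cells, ran from 6.51 through 6.72 to 6.83 in Tri and from 6.93 through 7.27 to 7.88 in Fsh+Tri, a rise of 1.61-fold (log2 0.68, adjusted p = 0.0296, 0.0555 with the stage covariate). It is the single marker of red blood cells among the named clones, and a part of blood in its change was not tested. *stk3*, annotated as a kinase of the Hippo pathway but also as a 14-3-3 protein, ran from 10.26 through 10.33 to 10.88 in Tri and from 10.73 through 11.03 to 11.24 in Fsh+Tri (log2 0.60, adjusted p = 0.0296, 0.0555 with the stage covariate). Its overlap came from Tri replicate 2.

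The other 3 of these clones all had their lowest mean in Tri, as did *slc30a1*. A KRAB zinc finger protein, of a family of transcriptional repressors, ran from 7.52 through 7.64 to 7.77 in Tri and from 8.10 through 8.23 to 8.66 in Fsh+Tri (log2 0.66, limma adjusted p = 0.0411, 0.0555 with the stage covariate). *gpam* ran from 5.92 through 6.19 to 6.38 in Tri and from 6.64 through 6.67 to 7.10 in Fsh+Tri (log2 0.58, adjusted p = 0.0411, 0.0585 with the stage covariate). *e2f4*, a cell cycle transcription factor that mostly represses, ran from 6.29 through 6.48 to 6.63 in Tri and from 6.81 through 7.07 to 7.31 in Fsh+Tri, and was called in the 12-array fit (log2 0.61, adjusted p = 0.0168). For these 3, trilostane alone changed the level by -0.40, -0.29 and -0.56 against Ctrl (adjusted p = 0.351, 0.502 and 0.0824), and the changes with Fsh alone were -0.16, -0.05 and 0.05. The difference between the responses had an unadjusted p between 0.000634 and 0.0373 for the 6, and none passed after adjustment, where the lowest was 0.322.

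Of the 3 downward clones, *zfp658*, a zinc finger protein, and *tmem106a*, a membrane protein, fell in the 12-array fit (log2 -0.71 and -0.62, adjusted p = 0.0214 and 0.0455), beside 0.329% of all clones tested. *purg*, a protein that binds purine-rich DNA, had a log2 fold change of -0.70 and just missed the threshold (adjusted p = 0.0513). It ran from 8.37 through 8.57 to 8.97 in Tri and from 7.31 through 8.07 to 8.32 in Fsh+Tri, and 2 of the Fsh+Tri arrays lay far below the other 4. Their changes without trilostane were -0.11, -0.19 and -0.02, and the difference of the responses did not pass for any after adjustment.

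**Figure D5:**
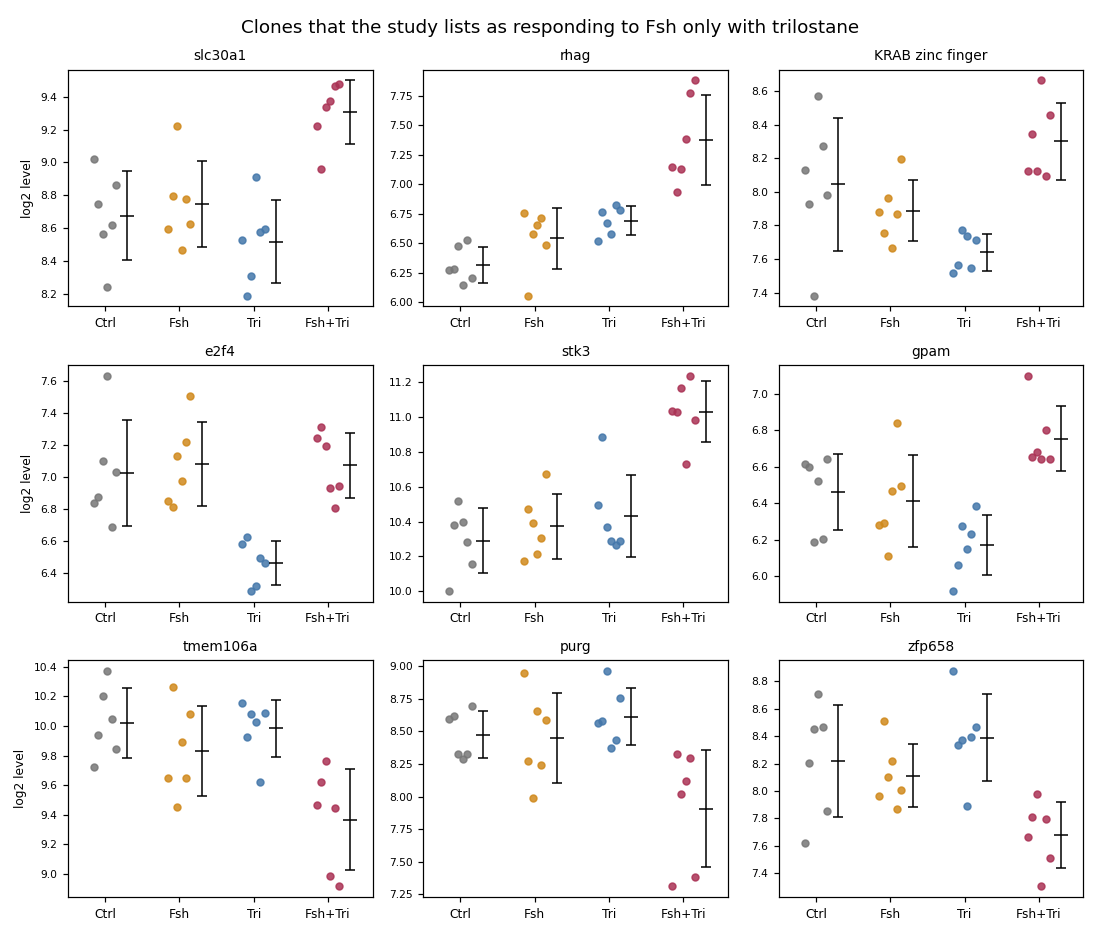
Log2 level on each array of Ctrl (grey), Fsh (orange), Tri (blue) and Fsh+Tri (red), 6 per group, for the 9 clones that the study lists as responding to Fsh only with trilostane, with bars for the mean ± SD and a vertical axis per panel. The Fsh+Tri arrays of *slc30a1* and *rhag* lie above those of Tri, at 8.96 or more and 6.93 or more, while *e2f4* has its lowest arrays in Tri, at 6.63 or less.

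The study's other classes were assigned on these arrays too, so that the differences between them are a description. By these classes, 30 clones are listed as raised by Fsh and insensitive to trilostane. Their median log2 fold change was 0.53 with trilostane and 0.70 without. Of the 30, 9 rose in the 24-array fit and 16 in the 12-array fit, beside 0.329% and 1.05% of all clones tested. An unadjusted p under 0.05 was met by 27 on 24 arrays and all 30 on 12, beside 11.3% and 15.7% of all clones tested. Of the 43 listed as raised and sensitive, 1 (*mmp19*) rose in the 24-array fit and 10 in the 12-array fit, with a median of 0.35 against 0.83 without trilostane. In these fits 21 and 25 of the 43 met an unadjusted p under 0.05. The 14 listed as lowered and insensitive had a median of -0.58 with trilostane and -0.61 without. Of these, 1 was called in the 24-array fit and 4 in the 12-array fit, beside 0.0219% and 0.329% of all clones tested. An unadjusted p under 0.05 was met by 13 of the 14 in each fit.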

How the data were processed

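Labelled cDNA of each well was hybridized to a nylon cDNA membrane. For each array the authors deposited spot intensity values and, in 1 table over all arrays, log2 values. Per the study's methods, the authors made the log2 values from the intensity divided by a vector oligonucleotide signal, rescaled by its median, and normalized by quantiles. The vector signal was not used here, so the deposited log2 values were the input. Rows of water and vector (192) were left out. A clone was tested if no more than 20% of the 24 cultured arrays lacked it and the mean of 1 treatment or more reached the experiment's median. Some clones reached it only in wells with Fsh, among them *tac1*, *krt12* clone 1, *slc9a3r1*, *lrrc8* clone 2, *vt1*, *fasn* clone 2, *timp2* and *dmd*. Such clones could pass the filter by their response to Fsh.

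Linear models with 4 treatment means were fitted in limma 3.58.1 (R 4.3.3, lmFit and eBayes). The adjustment was by Benjamini-Hochberg with a threshold of 0.05. Figures were drawn with matplotlib 3.10.9. The number of arrays limits the precision. On simulated data with the measured spread for 4565 clones of this contrast, the 24-array fit recovered 62% of clones changed 1.5-fold and 97% of those changed 2-fold, and the 12-array fit 73% and 97%. The simulation changed 100 clones at each size, more than the 16 and 63 called on the real arrays by the 24-array and 12-array fits. A Benjamini-Hochberg threshold is easier to pass where more clones change, so that the shares recovered can be too high. The simulated noise was independent between clones, with no outlying array and no effect of stage or software. These shares thus need not hold for the real arrays.

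The members, lists and named genes were chosen with earlier results of these data known. Named genes are the named clones called in either fit, those listed as responding only with trilostane, *hsd3b1*, *rps15*, the extremes of each list with up to 3 further members, and the 2 unnamed clones with the smallest p in each direction. A few named clones are not reported here. The study's classes were copied without its values. Alternatives covered filters, normalization, stage labels, software version, array weights, the replicate number and leaving out arrays. No clone was placed in a genome, and sequences, qPCR and steroid levels were not analysed here.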

Additional observations from a re-analysis of the deposited data

Results flagged for a closer look

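The response to Fsh was smaller with trilostane than without it, by the test of the difference itself, for *vt1* (-2.47), *slc26a4* (-2.20) and the 14 kDa apolipoprotein (-0.99 on the log2 scale). The stage label was not a covariate in this test. *vt1* passed the expression filter only through wells with Fsh, which enter the test. For *slc26a4*, trilostane alone changed the level by -1.69 against Ctrl.

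A single array stood apart from the other 5 of its group in 10 of 146 groups of 6 examined, and chance alone marks about 1 in 20. The gap to the nearest array, as a share of the whole range of the group, is given for each. In Tri these were the 14 kDa apolipoprotein in replicate 6 (0.632, at 7.11 above the others), *odc1* in replicate 3 (0.633, at 6.68 below the others) and *stk3* in replicate 2 (0.632, at 10.88 above the others). In Fsh+Tri, replicate 3 stood apart for *cyp46a1* (0.742, below the others), *plg* (0.641, above), *dmrt1* (0.656, above) and *psma4* (0.669, below). The other 3 were *gpam* in replicate 1 (0.653, above), *fblim1* in replicate 6 (0.76, above) and *onmydab* in replicate 4 (0.66, above).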

How the results depend on the processing

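The 16 clones called in the 24-array fit kept their direction under every alternative run for single clones. For the 14 of them whose groups do not overlap, this was fixed in advance wherever arrays were only left out. Over 73 named clones and 1605 values of single clones under an alternative, 1379 kept direction and side of the threshold, 127 lost the call, 70 gained it (34 of them with array weights and 23 with the 12 arrays alone) and 29 turned in sign. Against 15 clones higher and 1 lower in the 24-array fit and 48 and 15 in the 12-array fit, the counts in that order were 9 and 0, then 44 and 11 with the stage label as a covariate. They were 0 and 0 in both fits for stage I-II arrays alone, 2 and 1, then 3 and 1 for stage III arrays alone, and 8 and 0, then 18 and 4 without the arrays of the newer software. Where a count was 0, the clones at an unadjusted p under 0.05 numbered 196 lower with the stage covariate, 171 lower without the newer software, and 85 higher and 52 lower (24-array fit) or 147 and 103 (12-array fit) for stage I-II alone. Array weights gave 59 and 25, then 47 and 28, an intensity trend with a robust prior 19 and 2, then 55 and 32, and a second quantile normalization 14 and 4, then 44 and 22. Spot intensities without the correction for spotted cDNA gave 15 and 1, then 32 and 13. Without an expression filter, where more clones were tested, the counts were 10 and 1, then 30 and 11. An expression filter on the 12 arrays gave 14 and 1, then 48 and 15, and a demand for no missing value 15 and 1, then 49 and 15. Leaving out Ctrl replicates 3 and 4 gave 42 higher and 10 lower and leaving out Ctrl replicates 1 and 4 gave 47 and 11, both chosen after seeing the data. The cause of these changes was not tested.

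The replicate number as a block gave 9 and 1, then 20 and 10, and left the difference of the responses at 3 clones. Of the 16 clones, 10 stayed called. Arrays with the same number did not deviate together, with correlations of deviations between -0.26 and 0.17 over the 6 numbers, so that the numbers were not taken to pair the wells.

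Leaving out each array in turn gave 8 to 44 clones higher and 0 to 12 lower in the 24-array fit, 20 to 42 and 4 to 26 in the 12-array fit, and 2 to 5 for the difference of the responses, where the 5 came without Ctrl replicate 3. In the 24-array fit, clones higher numbered 8 without Tri replicate 1 or Fsh+Tri replicate 6, 9 without Tri replicates 2, 3 or 4 or Fsh+Tri replicates 1 or 2, and 44 without Ctrl replicate 4. Clones lower numbered 0 without any of Tri and Fsh+Tri replicates 1, 2 and 3 (158 to 204 at an unadjusted p under 0.05), 2 without Ctrl replicate 1, Fsh replicate 3 or Fsh+Tri replicate 4, 3 without Fsh+Tri replicate 5 and 12 without Ctrl replicate 4. In the 12-array fit, clones higher numbered 25 without Tri replicate 4, 27 without Tri replicate 5, 20 without Fsh+Tri replicates 1 or 6 and 25 without Fsh+Tri replicate 2. Clones lower numbered 9, 8 and 23 without Tri replicates 2, 4 and 6 and 7, 26 and 4 without Fsh+Tri replicates 1, 4 and 6. Of the 12 runs without a Tri or Fsh+Tri array, *krt12* clone 1 lost its call in 3, *abca1* in 6, *des* and *rhag* in 7, *galns* in 8, *ezr* in 9, *stk3* in 10 and the KRAB zinc finger and *gpam* in 11, with adjusted p at most 0.163.

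The changes in sign were of clones not called. *slc26a4* stood at -0.0055 with the stage covariate, -0.23 for stage I-II, -0.012 without the newer software, -0.20 on spot intensities and between -0.080 and 0.20 without 1 array. *fblim1* stood at -0.014, -0.046 and -0.0004 in the first 3 of these, -0.11 for stage III, -0.13 on spot intensities and -0.079 to 0.075 without 1 array. *smtn* stood at 0.29 for stage I-II, 0.007 without the newer software, 0.19 on spot intensities and -0.11 to 0.027 without 1 array, and *dmd* at 0.067 on spot intensities and -0.14 to 0.015 without 1 array. For stage I-II the 14 kDa apolipoprotein stood at -0.087 and *gapdhs* at -0.055, and for stage III *krt18* at 0.24 and *onmy-uba* clone 2 at 0.041.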
